A study of Homo sapiens with 39 samples.

Results

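The genes described here are MYC, its obligate partner MAX, 3 genes of the MXD group that compete with MYC for MAX (MXD3, MXD4 and MXI1), and the 3 genes of the MYB family (MYB, MYBL1 and MYBL2). They were chosen by symbol, 8 of the 46706 symbols measured, and all 8 were among the 14404 genes expressed highly enough to be tested. RNA was sequenced from HCC1428-LTED cells, a human breast cancer line that expresses the estrogen receptor and has been adapted to growth without estrogen for a long time, after 24 hours with a ligand of the estrogen receptor or with vehicle. The medium of all 13 groups was IMEM, to which 5% serum stripped with charcoal was added. Vehicle was DMSO, and the 6 ligands were fulvestrant, SAR439859, GDC-0810, AZD9496 and 2 hybrids, each given at 30 nM and at 300 nM. By the labels, GDC-SAR carries the SAR439859 side chain on the GDC-0810 scaffold, and AZD-SAR carries that side chain on the AZD9496 scaffold. Each group held 3 libraries, 39 in all. A single cell line was used, and nothing in the labels says that the 3 libraries of a group came from separate cultures, so p-values measure the spread between libraries, which may be technical. The series text speaks of duplicates where the labels give 3 libraries a group.

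MYC is a transcription factor that binds DNA as a dimer with MAX, at E-box sites in the promoters of genes for ribosome production, metabolism and cell growth. MXD proteins form dimers with the same partner at the same sites and recruit corepressors, so the levels of MYC and of the MXD proteins set which dimers can form. The MYB proteins bind a different site, and MYBL2 (B-MYB) joins the MuvB core complex to switch on genes of late S phase and mitosis. In estrogen receptor-positive breast cancer cells, MYC and MYB are long known as genes that estrogen induces.

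The genes lie on GRCh38 as annotated by GENCODE release 29. MYC (chromosome 8, 127735434 to 127741434) and MYBL1 (chromosome 8, 66562175 to 66614247) share a chromosome. MAX lies on chromosome 14 (65006174 to 65102695), MXD3 on 5 (177301461 to 177312757), MXD4 on 4 (2247432 to 2262294), MXI1 on 10 (110207605 to 110287365), MYB on 6 (135181315 to 135219173) and MYBL2 on 20 (43667019 to 43716496). The table holds 1 value per symbol and library, so isoforms are not separated.

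Levels are in TPM, transcript abundance scaled to gene length and to a fixed total per library. Differences are of log2(TPM + 1), first group minus second, from limma with 1 mean per group and 1 shared estimate of the spread. Each p is two-sided and adjusted by the Benjamini-Hochberg method over the 14404 genes of a comparison, and a gene is said to be called, to rise or to fall, where the adjusted p is under 0.05. The cells carried luminal markers in every library, with ESR1 between 250.1 and 567.9 TPM, while PTPRC, PECAM1, KRT5 and LUM each had a median of at most 0.0286 TPM. COL1A1 (7.32 to 17.9 TPM) and CD68 (4.09 to 12.3 TPM) were the markers of other cell types found in every library at more than a trace. VIM had a median of 0.448 TPM and reached 3.11 TPM, and VWF had 0.139 and reached 1.61 TPM. DCN, at 0 in 29 libraries, reached 7.06 TPM, and COL1A2, at 0 in 25, reached 2.28 TPM. Libraries listed 15818 to 26756 genes above 0. The lowest number belonged to SAR439859 30 nM replicate 3, and that group was the least alike within itself, with a mean correlation of 0.890 to 0.921 between group mates. Of the 3 DMSO libraries, 2 share an index with a ligand library and so would have been sequenced apart from it, and a pool effect on comparisons with DMSO cannot be told apart from the ligands.

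The promoter windows of MXD4 and MYBL2 are shown because both hold the E-box that MYC and MXD dimers bind, while their transcripts moved in opposite directions with 4 of the 6 ligands; they were picked after their values were seen. Capitals mark the E-box, CACGTG, which reads the same on both strands. The sequences come from RefSeq on GRCh38.p14, on the strand of the gene, and only bases upstream of both the RefSeq and the GENCODE start are printed.
MXD4, chr4:2262295-2262359, minus strand: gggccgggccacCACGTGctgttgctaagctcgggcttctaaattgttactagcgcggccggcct
MYBL2, chr20:43666864-43667018, plus strand: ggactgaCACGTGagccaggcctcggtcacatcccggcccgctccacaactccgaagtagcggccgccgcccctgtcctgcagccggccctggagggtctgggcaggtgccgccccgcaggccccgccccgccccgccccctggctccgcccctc
The E-box of MXD4 spans bases -238 to -233 and that of MYBL2 bases -243 to -238, counted back from -1, the base before the RefSeq start. Windows of 250 bases were read for 6 members, 9 starts in all, leaving out MYC and MYBL1. Both MAX windows lie inside the gene as GENCODE annotates it, so bases upstream of the GENCODE start of MAX were not searched. An E-box was found in 2 of the 6 members, and in 6.34% of 35116 RefSeq promoter windows. Each other motif was searched on both strands. The cell cycle element TTTGAA or TTCGAA was in 0 of the 6 members (14.3% of all windows), the palindromic estrogen response element (ERE) in 0 of 6 (0.0399%), its shorter element AGGTCA in 1 of 6, MXD3 (12.1%), the MYB site TAACNG in 1 of 6, MXI1 (17.6%), and an E2F site (TTCCCGC, with the variants TTGGCGC and TTGCCGC and the further variant TTCGCGC) in 1 of 6, MXD4 (10.9%). Forms of the E2F site that end in G were not searched. An example, TTGGCGG, lies in the windows of MYB and MYBL2. The E2F match of MXD4, at bases -86 to -80, lies in the 185 bases of its window past the GENCODE start. A match is a run of letters and not evidence of binding.

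MYC fell with every ligand at both doses. In DMSO it stood at 68.6, 65.5 and 63.8 TPM, 66.0 ± 2.47 (SD, n = 3). The 36 ligand libraries ranged from 15.01 to 34.0 TPM with a median of 22.7. No ligand library reached the DMSO range. Of the tested genes, 7.72% had all 36 ligand libraries on 1 side of the 3 DMSO libraries, 3.64% of them below. The log2 differences from DMSO ran from -1.05 with AZD9496 30 nM (SE 0.135, adjusted p = 5.33e-06) to -1.86 with SAR439859 300 nM (SE 0.135, adjusted p = 1.28e-11), a 2.06-fold and a 3.62-fold lower value of TPM + 1. MYC was called in 12 of 12 comparisons with DMSO, where 1.24% of tested genes were called lower in all 12. In bulk RNA, fewer cells that express MYC and less MYC RNA per cell cannot be told apart.

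MYC differed between ligands in 4 of 30 pairs, and in 0 of them with separate fits to the libraries compared. At 300 nM, the AZD9496 libraries held 31.4, 30.0 and 25.2 TPM and the SAR439859 libraries held 15.01, 18.7 and 19.1 TPM. These ranges did not overlap, and the difference was 0.69 (SE 0.135, adjusted p = 0.00143, with 7.11% of genes called in that comparison). For pairs of ligands, the share of all genes whose library ranges did not overlap was not counted. Fitted to those 6 libraries alone, it gave an adjusted p of 0.0705. At 30 nM the AZD9496 libraries held 30.1, 30.4 and 34.0 TPM against 26.2, 19.2 and 20.7 TPM with SAR439859, a difference of 0.51 (SE 0.135, adjusted p = 0.0222; 5.35% of genes called). That 30 nM call was lost without SAR439859 replicate 2 (adjusted p = 0.0801), without SAR439859 replicate 3 (0.0992) or without AZD9496 replicate 3 (0.111). MYC was also lower with GDC-SAR than with AZD9496 at 30 nM (-0.46, SE 0.135, adjusted p = 0.0470; 4.46% of genes called), and this call was lost on leaving out any of its 6 libraries. AZD-SAR against AZD9496 at 300 nM was the remaining call and is given with the side chain exchange. Over all 6 ligands, the limma F test for MYC gave an adjusted p of 0.0938 at 30 nM and of 0.0184 at 300 nM, where it called 5.11% and 4.91% of genes. The 300 nM result was lost without SAR439859 replicate 1 (adjusted p = 0.0588), AZD9496 replicate 1 (0.0904) or AZD9496 replicate 2 (0.108). Fitted to the ligand libraries of 300 nM alone, the F test gave an adjusted p of 0.208. The 30 nM result passed without SAR439859 replicate 1 (0.0322).

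**Figure D1:**
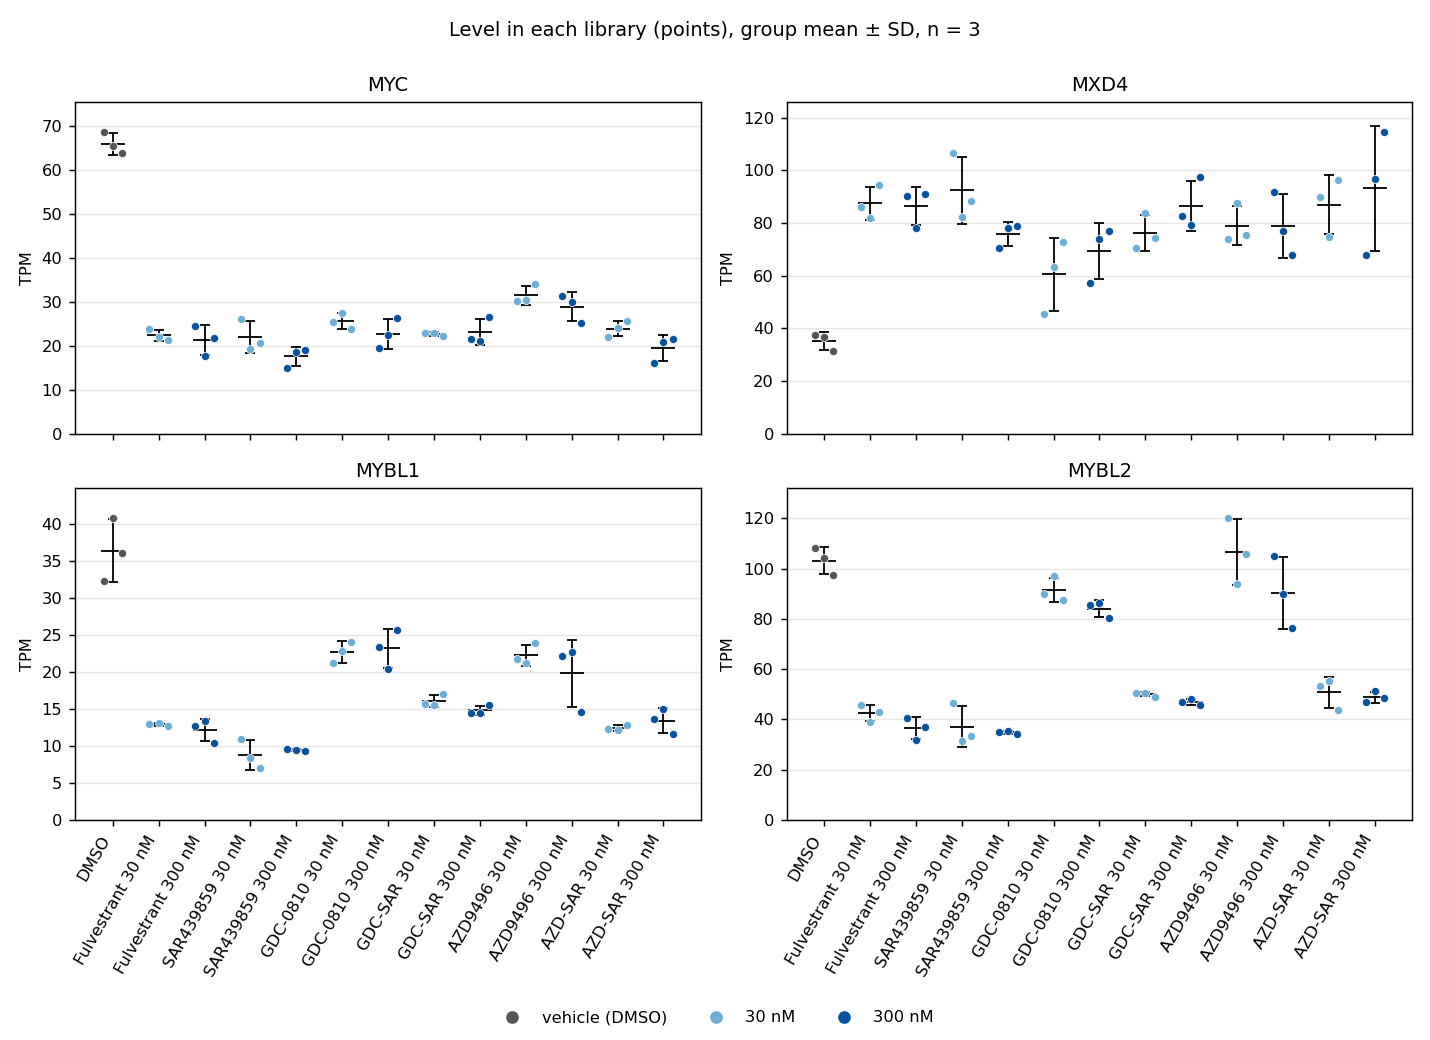
Level in TPM (linear axis from 0) of MYC, MXD4, MYBL1 and MYBL2 in each of the 39 libraries, by group. Points are libraries and bars are the group mean ± SD (n = 3). MYC and MYBL1 lie below DMSO in all 36 ligand libraries and MXD4 lies above it in all 36. For MYBL2, GDC-0810 and AZD9496 lie at 76.3 TPM or more and the other 4 ligands at 55.3 TPM or less.

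MAX, the partner that MYC and the MXD proteins share, was listed at 117, 81.2 and 80.2 TPM in DMSO, 92.9 ± 21.0 (SD, n = 3). Group means with ligands ran from 127 to 174 TPM, and 29 of 36 ligand libraries lay above all 3 DMSO libraries. The differences from DMSO were positive in 12 of 12 comparisons, 0.46 to 0.92 (SE 0.297). AZD-SAR 30 nM was the comparison in which MAX was called (181, 179 and 161 TPM; difference 0.92, adjusted p = 0.0276). The SAR439859 30 nM libraries spread widest, at 257, 139 and 59.1 TPM, and the lowest of these is the library with the fewest genes listed above 0.

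The number of calls for MAX rested on that group. Without the 3 SAR439859 30 nM libraries, 7 of the remaining 11 comparisons were called against 1 with them, and the smallest adjusted p was 0.00132, for AZD-SAR 30 nM. Leaving out SAR439859 30 nM replicate 3 alone gave 7 of 12 calls, and leaving out replicate 1 gave 6 of 12. Leaving out AZD-SAR 30 nM replicate 1 or 2, or DMSO replicate 2 or 3, left 0. DMSO replicate 1 held the highest MAX level of its group, and 3 comparisons were called without it. Rescaling by median-of-ratios factors gave 3 calls, fits to the libraries compared alone gave 6, and testing with no expression filter gave 0. The difference between ligands passed the test for MAX in 0 of 30 pairs.

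MXD4, which encodes a repressor of the MXD group, rose with every ligand. Its level was 37.6, 36.9 and 31.4 TPM in DMSO, 35.3 ± 3.39 (SD, n = 3), and 45.5 to 115 TPM in the 36 ligand libraries with a median of 79.0. Every ligand library lay above every DMSO library, as they did for 4.08% of tested genes. The smallest difference was with GDC-0810 30 nM (45.5, 63.2 and 73.0 TPM; 0.74, SE 0.166, adjusted p = 0.00262). The largest was with SAR439859 30 nM (106, 82.3 and 88.3 TPM; 1.36, SE 0.166, adjusted p = 3.20e-07). MXD4 was called in 12 of 12 comparisons with DMSO, where 1.69% of tested genes were called higher in all 12.

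Between ligands, 1 of 30 pairs was called for MXD4, GDC-0810 minus SAR439859 at 30 nM (-0.62, SE 0.166, adjusted p = 0.0219; 6.16% of genes called). The call was lost without SAR439859 replicate 1 (adjusted p = 0.0749) or GDC-0810 replicate 1 (0.190), with no expression filter (0.0516), and in a fit to the 6 libraries alone (0.425).

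MXD3 and MXI1, the other MXD genes of the set, were not called against DMSO or between ligands. MXD3 stood at 11.4, 12.3 and 10.9 TPM in DMSO and at 7.26 to 24.2 TPM with ligands, with differences from -0.27 to 0.50 (SE 0.302). The ligand libraries lay on both sides of DMSO, 24 of 36 below it and 8 above it, and AZD9496 30 nM had both the highest mean and a wide spread (10.6, 18.1 and 24.2 TPM). MXI1 stood at 22.7, 19.8 and 18.3 TPM in DMSO and at 13.1 to 25.0 TPM with ligands, with differences from -0.39 to 0.19 (SE 0.176). Its lowest group was AZD9496 300 nM (18.2, 14.6 and 13.1 TPM), with a 95% interval for the difference from DMSO of -0.75 to -0.03 and an adjusted p of 0.216.

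**Figure D2:**
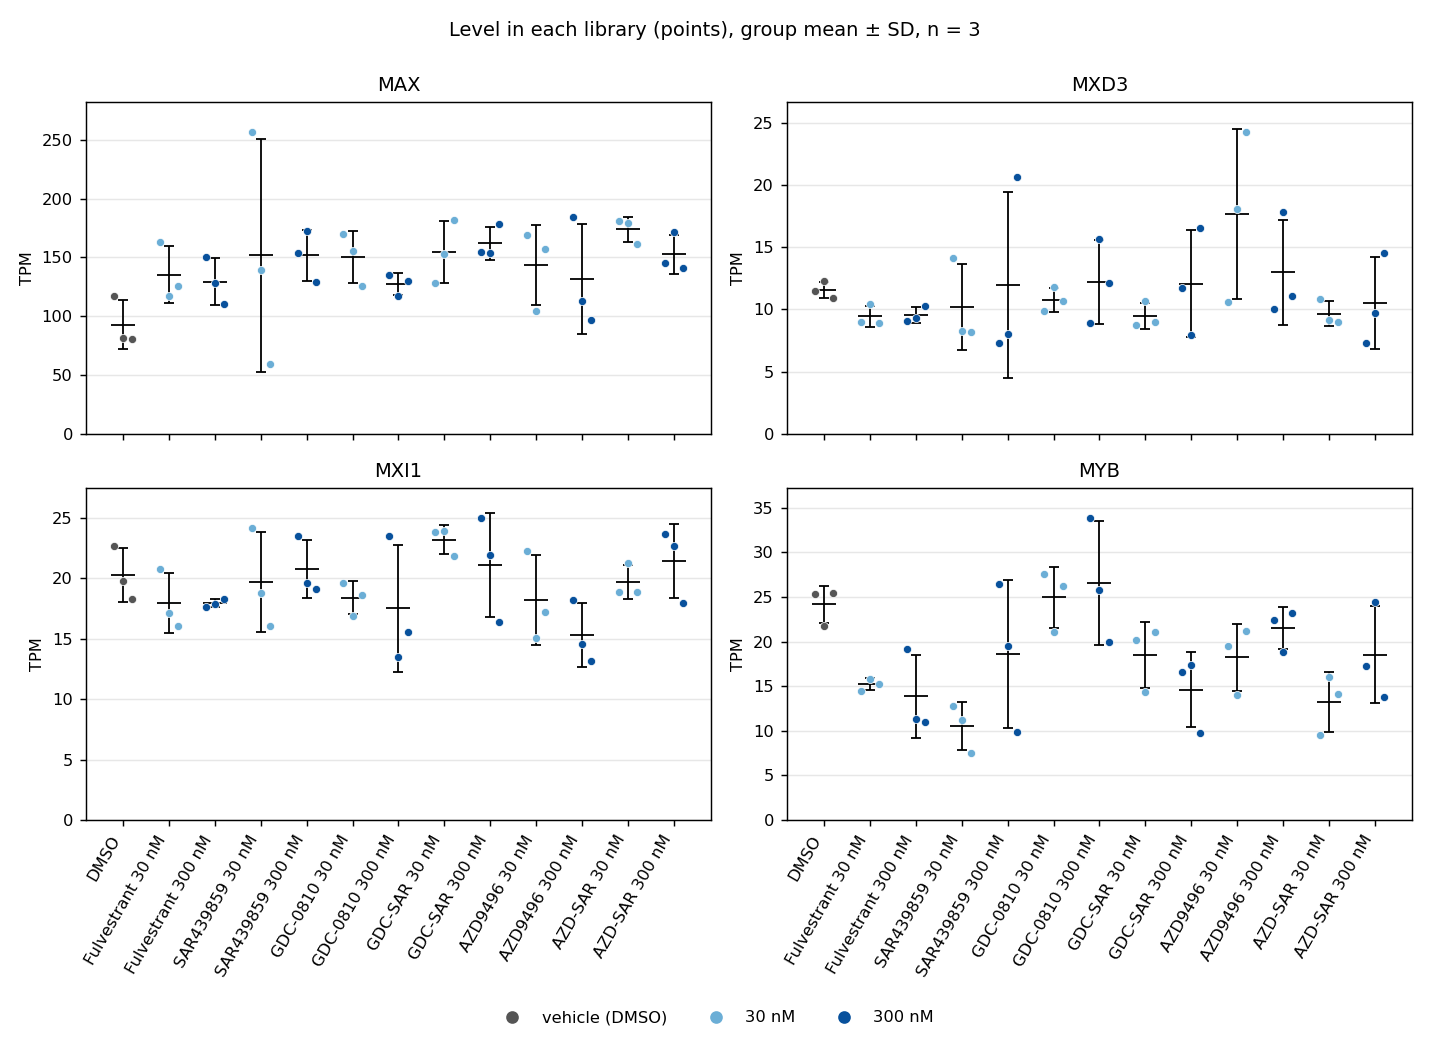
Level in TPM (linear axis from 0) of MAX, MXD3, MXI1 and MYB in each of the 39 libraries, by group, with the mean ± SD (n = 3). The SAR439859 30 nM libraries spread from 59.1 to 257 TPM for MAX, and ligand libraries lie both below and above the DMSO range for MXD3 (24 and 8 of 36) and MXI1 (16 and 7 of 36).

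Because TPM is scaled for length, MYC can be set beside the genes that oppose it at MAX. As a share of the summed TPM of MYC, MXD1, MXD3, MXD4, MXI1, MNT and MGA, MYC made up 39.7 ± 1.15% (SD, n = 3) in DMSO. The ligand libraries lay between 9.43% and 18.0%, and the group means between 10.5% with AZD-SAR 300 nM and 16.8% with AZD9496 300 nM. No ligand library came near the DMSO range of 38.9% to 41.0%. The summed level of the 6 opposing genes was 100.3 ± 7.79 TPM in DMSO and 116 to 196 TPM in the ligand libraries. Of these genes MXD4 alone was called against DMSO, at 35.3 TPM in DMSO and 60.5 to 93.1 TPM as ligand group means. MXD1, MXD3, MXI1, MNT and MGA were each called in 0 of 12 comparisons. There were 1.40 ± 0.265 MAX transcripts for each MYC transcript in DMSO and 4.49 to 8.74 as group means with ligands. These are RNA ratios, with no measure of protein, and they are a description without a test.

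**Figure D3:**
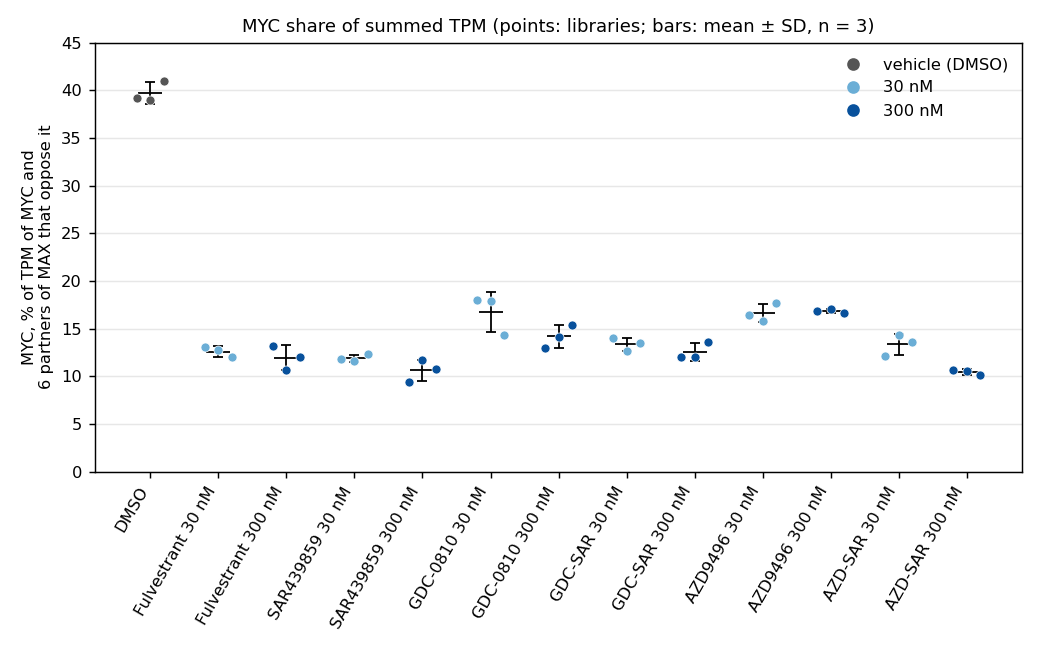
MYC as a percent of the summed TPM of MYC and 6 genes that oppose it at MAX (MXD1, MXD3, MXD4, MXI1, MNT and MGA), in each library by group, on a linear axis from 0. Bars are the mean ± SD (n = 3). DMSO lies at 38.9% to 41.0% and the ligand libraries at 9.43% to 18.0%.

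MYB, the founding member of its family, changed less evenly. It stood at 25.4, 21.7 and 25.4 TPM in DMSO, 24.2 ± 2.12 (SD, n = 3), and between 7.55 and 33.8 TPM with ligands. The lowest group was SAR439859 30 nM, at 12.8, 11.2 and 7.55 TPM, and the highest was GDC-0810 300 nM, at 33.8, 25.8 and 20.0 TPM, which overlaps DMSO. MYB was called lower in 3 of 12 comparisons, with SAR439859 30 nM (-1.15, SE 0.278, adjusted p = 0.00256), AZD-SAR 30 nM (-0.85, SE 0.278, adjusted p = 0.0297) and fulvestrant 300 nM (-0.80, SE 0.278, adjusted p = 0.0423). Leaving out any of the 3 DMSO libraries, or testing with no expression filter, left 1 call. With AZD-SAR the adjusted p was 0.0501 to 0.0859 without a DMSO library and 0.162 without AZD-SAR replicate 1. With fulvestrant it was 0.0671 to 0.110 without a DMSO library, 0.156 without fulvestrant replicate 2 and 0.141 without replicate 3.

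GDC-0810 left MYB nearest to its DMSO level, with differences of 0.04 (95% interval -0.53 to 0.61) at 30 nM and 0.10 (-0.47 to 0.67) at 300 nM. At 30 nM MYB was higher with GDC-0810 (27.6, 21.1 and 26.2 TPM) than with SAR439859, by 1.20 (SE 0.278, adjusted p = 0.00782), the 1 pair of 30 called. The 2 groups did not overlap. Without SAR439859 30 nM replicate 3 the adjusted p was 0.0644, and in a limma fit to the 6 libraries alone it was 0.182.

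MYBL1 (A-MYB) fell with every ligand, by amounts that differed between ligands. In DMSO it stood at 32.2, 40.7 and 36.1 TPM, 36.4 ± 4.25 (SD, n = 3), and all 36 ligand libraries lay below that range, at 7.02 to 25.7 TPM. The strongest falls were with SAR439859, at 10.9, 8.38 and 7.02 TPM with 30 nM (-1.95, SE 0.139, adjusted p = 1.11e-11) and 9.56, 9.41 and 9.31 TPM with 300 nM (-1.83, SE 0.139, adjusted p = 3.39e-11). The weakest were with GDC-0810, at 21.2, 22.8 and 24.1 TPM with 30 nM (-0.65, SE 0.139, adjusted p = 0.00175) and 23.4, 20.4 and 25.7 TPM with 300 nM (-0.63, SE 0.139, adjusted p = 0.00251). AZD9496 lay close to GDC-0810, with -0.68 and -0.86, while fulvestrant gave -1.42 and -1.51 and the hybrids lay between -1.12 and -1.47. MYBL1 was called in 12 of 12 comparisons with DMSO.

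MYBL1 differed between ligands in 14 of 30 pairs, 7 at each dose, where the share of all genes called in a pair ran from 0% to 8.57%. GDC-0810 exceeded SAR439859 by 1.29 at 30 nM (SE 0.139, adjusted p = 2.11e-07; 6.16% of genes called) and by 1.21 at 300 nM (SE 0.139, adjusted p = 1.22e-06; 2.46% of genes called). Fitted by limma to the libraries of that pair alone, the 30 nM difference had an adjusted p of 0.102. AZD9496 exceeded fulvestrant by 0.74 (adjusted p = 0.00173; 1.97% of genes called) and 0.64 (adjusted p = 0.00712; 2.4% of genes called); the 300 nM call was lost without fulvestrant replicate 3 or AZD9496 replicate 1 or 2 (adjusted p = 0.054 to 0.0873). SAR439859 and fulvestrant were not called apart, although their library ranges did not overlap, with 95% intervals of the difference of -0.81 to -0.24 at 30 nM and -0.61 to -0.04 at 300 nM. The limma F test over the 6 ligands gave adjusted p = 3.05e-07 at 30 nM and 3.37e-06 at 300 nM.

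MYBL2, the B-MYB gene, separated the ligands into those that lowered it and those that were not called. In DMSO it stood at 108, 104 and 97.4 TPM, 103 ± 5.47 (SD, n = 3). With SAR439859 it stood at 46.6, 31.5 and 33.4 TPM at 30 nM (-1.47, SE 0.123, adjusted p = 2.44e-10) and at 35.0, 35.5 and 34.1 TPM at 300 nM (-1.54, SE 0.123, adjusted p = 9.54e-11). Fulvestrant gave -1.26 and -1.48, GDC-SAR -1.03 and -1.12, and AZD-SAR -1.01 and -1.06, all called. The highest of the 24 libraries with these 4 ligands, 55.3 TPM, lay below the lowest of the other 15, 76.3 TPM. This division was drawn from the MYBL2 values, and how many other genes separate so was not counted.

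With GDC-0810, MYBL2 stood at 89.9, 97.0 and 87.6 TPM at 30 nM (-0.17, 95% interval -0.42 to 0.08, adjusted p = 0.364) and at 85.7, 86.3 and 80.4 TPM at 300 nM (-0.29, -0.54 to -0.04, adjusted p = 0.104). All GDC-0810 libraries lay below the DMSO range, as did those of 21.4% of tested genes at 30 nM and 19.3% at 300 nM. With AZD9496 it stood at 120, 93.9 and 106 TPM at 30 nM (0.04, -0.21 to 0.29, adjusted p = 0.881) and at 105, 89.8 and 76.3 TPM at 300 nM (-0.20, -0.45 to 0.05, adjusted p = 0.401). After the libraries were rescaled by median-of-ratios factors, the 300 nM differences were called for GDC-0810 (-0.29, adjusted p = 0.0373) and for AZD9496 (-0.31, adjusted p = 0.0432), and the 30 nM AZD9496 value turned to -0.17 without being called (adjusted p = 0.300). MYBL2 was called in 8 of 12 comparisons with DMSO and in 16 of 30 pairs of ligands, 8 at each dose. The limma F test over the 6 ligands gave adjusted p = 3.07e-10 at 30 nM and 1.30e-09 at 300 nM.

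The 16 pairs called for MYBL2 were the pairs of GDC-0810 or AZD9496 with each of the other 4 ligands. The largest was AZD9496 minus SAR439859 at 30 nM, 1.51 (SE 0.123, adjusted p = 8.88e-10), and the smallest AZD-SAR minus GDC-0810 at 300 nM, -0.77 (SE 0.123, adjusted p = 3.26e-04; 1.74% of genes called). Fitted by limma to the libraries of each pair alone, the adjusted p was 0.0622 for the largest and 0.217 for the smallest. AZD9496 and GDC-0810 were not called apart, with intervals of -0.04 to 0.46 at 30 nM and -0.16 to 0.34 at 300 nM.

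**Figure D4:**
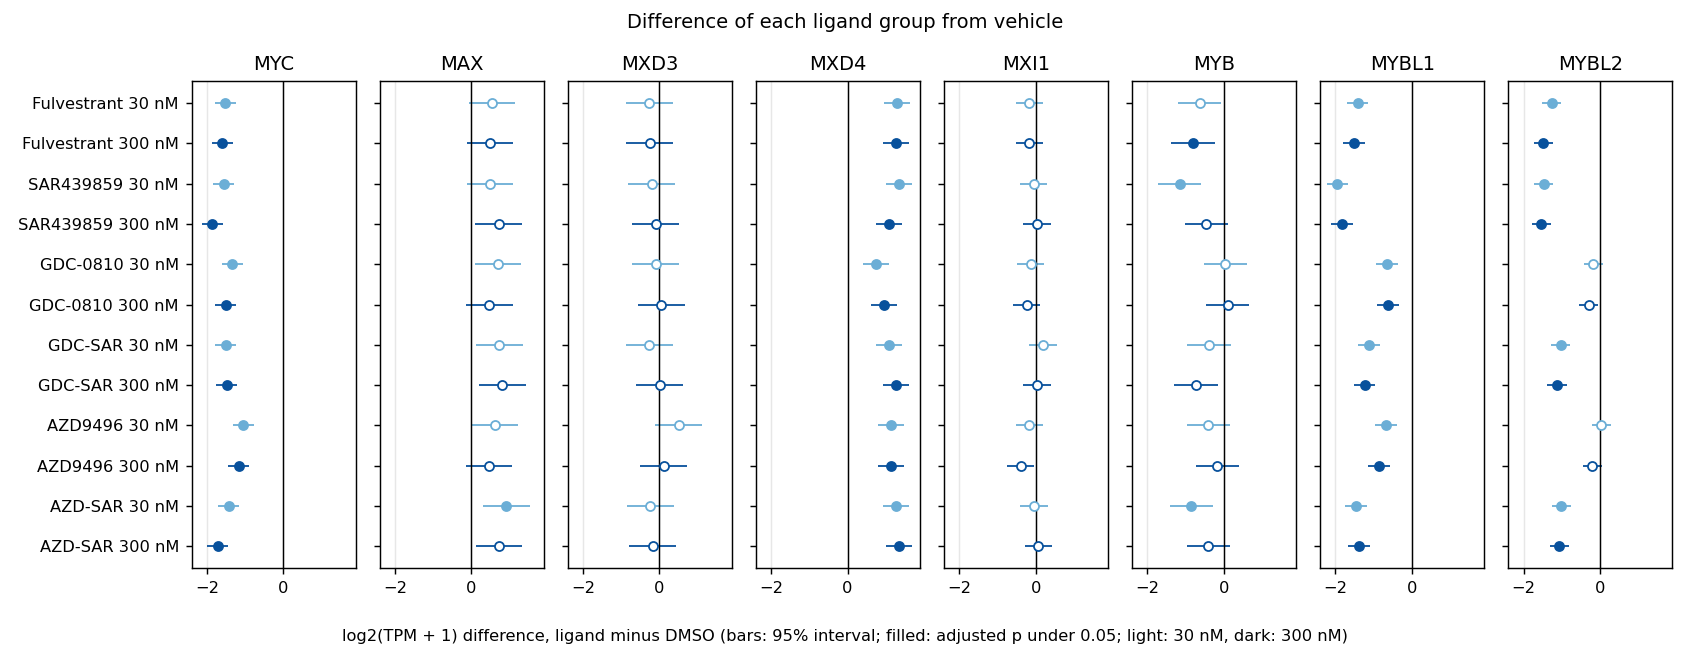
Difference of log2(TPM + 1) from DMSO for the 8 genes (panels) with each ligand and dose (rows), from limma. Points are the estimates and bars the 95% intervals; filled points have an adjusted p under 0.05. MYC, MXD4 and MYBL1 are filled in all 12 rows and MYBL2 in 8, open with GDC-0810 and AZD9496.

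Counted by comparison, 3 to 6 of the 8 genes were called against DMSO. At 30 nM these were 4 with fulvestrant (19.1% of all genes called), 5 with SAR439859 (25.5%), 3 with GDC-0810 (16.8%), 3 with AZD9496 (11.3%), 4 with GDC-SAR (22.5%) and 6 with AZD-SAR (20.6%). The counts at 300 nM were 5 with fulvestrant (19.2%), 4 with SAR439859 (24.1%), 3 with GDC-0810 (16%), 3 with AZD9496 (5.93%), 4 with GDC-SAR (20.3%) and 4 with AZD-SAR (25.6%). The 3 genes called in all 12 comparisons, MYC, MXD4 and MYBL1, made up 36 of the 48 calls. All comparisons with DMSO use the same 3 DMSO libraries and are not independent of each other.

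Between ligands at a matched dose, 36 of 240 comparisons of the 8 genes were called, 19 at 30 nM and 17 at 300 nM. GDC-0810 or AZD9496 stood on one side of 35 of the 36. Separate fits to the 6 libraries of each pair called 17 of the 240, 11 for MYBL2 and 6 for MYBL1. The pair with the most called was GDC-0810 minus SAR439859 at 30 nM, with 4 of the 8 genes (6.16% of all genes called), and the same pair at 300 nM had 2 (2.46%). AZD9496 minus SAR439859 had 3 at 30 nM (5.35%) and 3 at 300 nM (7.11%). Against fulvestrant, GDC-0810 had 2 at each dose (2.25% and 2.6%), as did AZD9496 (1.97% and 2.4%). AZD-SAR minus GDC-0810 had 2 at each dose (1.65% and 1.74%), and GDC-SAR minus AZD9496 had 2 at 30 nM (4.46%) and 1 at 300 nM (3.62%). The 4 pairs that exchange a side chain are described in turn, and GDC-SAR minus SAR439859 had 1 at 30 nM (0.257%) and 0 at 300 nM (0%). In the remaining pairs 0 of the 8 genes were called. Of these, SAR439859 minus fulvestrant called 0.0139% and 0% of all genes, AZD9496 minus GDC-0810 0.0208% and 1.12%, and AZD-SAR minus SAR439859 0.0555% and 0%, while both hybrids against fulvestrant, and the hybrids against each other, called 0%.

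The hybrids allow the side chain to be exchanged on a fixed scaffold. Of all 14404 genes, the exchange on the GDC-0810 scaffold called 1.28% at 30 nM and 1.25% at 300 nM, and that on the AZD9496 scaffold called 1.68% and 8.57%. MYBL2 was lower with the hybrid on both scaffolds at both doses. GDC-SAR held 50.7, 50.4 and 49.1 TPM at 30 nM and 46.9, 48.1 and 45.8 TPM at 300 nM, below GDC-0810 by 0.86 (-0.86, SE 0.123, adjusted p = 8.34e-05) and 0.83 (-0.83, SE 0.123, adjusted p = 2.56e-04). AZD-SAR held 53.4, 55.3 and 43.7 TPM at 30 nM and 46.8, 51.3 and 48.5 TPM at 300 nM, below AZD9496 by 1.05 (-1.05, SE 0.123, adjusted p = 1.96e-06) and 0.86 (-0.86, SE 0.123, adjusted p = 4.00e-05). The library ranges did not overlap in any of these 4 pairs, though the share of all genes with ranges apart was not counted for them. Fitted to the 6 libraries of a pair alone, the 300 nM differences had adjusted p of 0.0947 on the GDC-0810 scaffold and 0.0874 on the AZD9496 scaffold.

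MYBL1 was also lower with the hybrids, called in 3 of the 4 exchanges. In limma fits to the 6 libraries of a pair alone, both 300 nM calls were lost. The adjusted p was then 0.313 on the GDC-0810 scaffold and 0.257 on the AZD9496 scaffold. AZD-SAR (12.3, 12.2 and 12.9 TPM) was below AZD9496 (21.7, 21.2 and 23.9 TPM) at 30 nM by 0.79 (-0.79, SE 0.139, adjusted p = 9.97e-04), and these ranges did not overlap. At 300 nM the difference was -0.51 (SE 0.139, adjusted p = 0.0217), with AZD9496 replicate 3 (14.6 TPM) inside the AZD-SAR range, and it was lost on leaving out either of the other AZD9496 libraries or AZD-SAR replicate 1 or 3 (adjusted p = 0.0523 to 0.149). GDC-SAR was below GDC-0810 by 0.61 at 300 nM (-0.61, SE 0.139, adjusted p = 0.0201), a call lost without any of 5 of its 6 libraries (adjusted p = 0.0505 to 0.102; the exception was GDC-0810 replicate 2). At 30 nM the value of -0.47 (95% interval -0.76 to -0.19) was not called (adjusted p = 0.102), although the ranges did not overlap, and it was called after rescaling (0.0310) or without the 3 SAR439859 30 nM libraries (0.0468).

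MYC was lower after the exchange on the AZD9496 scaffold at 300 nM, where AZD-SAR held 16.1, 21.0 and 21.5 TPM (-0.55, SE 0.135, adjusted p = 0.0121). That call was lost without AZD9496 replicate 2 (adjusted p = 0.0697) or AZD-SAR replicate 1 (0.129), and in a fit to the 6 libraries alone (0.198). At 30 nM the difference was -0.38 (95% interval -0.66 to -0.11, adjusted p = 0.186). On the GDC-0810 scaffold MYC was not called, with intervals of -0.44 to 0.11 at 30 nM and -0.25 to 0.30 at 300 nM. The difference between scaffolds at 300 nM was 0.57 (SE 0.191, unadjusted p = 0.00543, adjusted p = 0.197), which does not pass the test. In all, 0 of 16 such differences between scaffolds were called, where limma called 0% of genes at 30 nM and 0.00694% at 300 nM. MAX, MXD3, MXD4, MXI1 and MYB were called in none of the 4 exchanges.

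Set against SAR439859, whose side chain they carry, the hybrids had higher MYBL1 and MYBL2 estimates at both doses, of which 1 of 8 was called. MYBL1 was higher with GDC-SAR than with SAR439859 at 30 nM by 0.82 (SE 0.139, adjusted p = 0.00463; 0.257% of genes called), or 0.0596 without SAR439859 replicate 3. For MYBL2 the differences were 0.42 to 0.47, with intervals from 0.17 to 0.73 and adjusted p from 0.102 to 0.752. Both 30 nM differences of MYBL2 were called after rescaling (adjusted p = 0.00902 with GDC-SAR and 0.0324 with AZD-SAR) or without SAR439859 30 nM replicate 1 (0.0133 and 0.0127). The hybrids themselves, which share the side chain and differ in scaffold, were called apart for 0 of 8 genes at either dose (0% of genes called), with MYBL2 intervals of -0.24 to 0.27 at 30 nM and -0.20 to 0.31 at 300 nM.

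**Figure D5:**
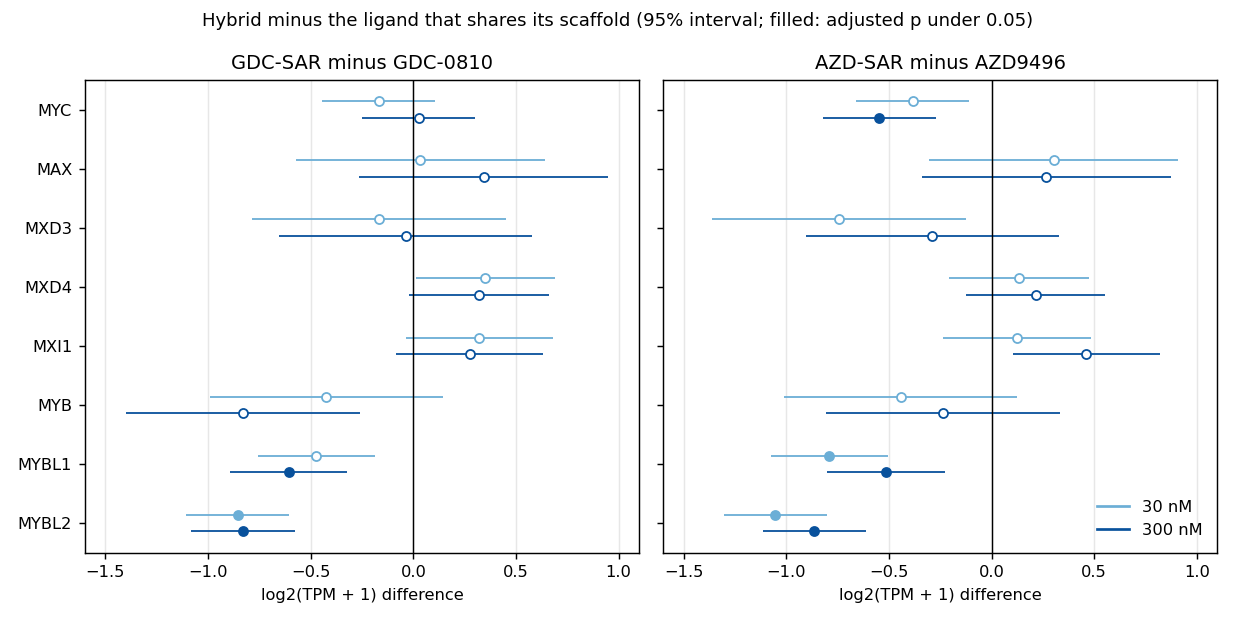
Difference of log2(TPM + 1) between each hybrid and the ligand that shares its scaffold, for the 8 genes at 30 nM (light) and 300 nM (dark), with 95% intervals from limma. Filled points have an adjusted p under 0.05. MYBL2 is filled on both scaffolds at both doses, between -0.83 and -1.05, while MYC is filled with AZD-SAR at 300 nM alone.

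A 10-fold higher dose did not move any of the 8 genes past the test. Of 48 comparisons of 300 nM with 30 nM, 0 were called, and limma called 0% of genes in each of the 6 ligands, with 255 to 1713 genes at an unadjusted p under 0.05. The differences for MYC lay between -0.30 and 0.02 and those for MYBL2 between -0.24 and -0.05. The widest was MYB with SAR439859, 0.70 (unadjusted p = 0.0179, adjusted p = 0.334), where the 300 nM libraries spread over 26.4, 19.5 and 9.89 TPM. The 95% intervals over the 6 ligands reached from -0.58 to 0.30 for MYC and from -0.49 to 0.20 for MYBL2.

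In the order of the 13 group means, neighbours seldom stood apart. For MYC the gap between DMSO and the next group, AZD9496 30 nM, was the 1 place of 12 where the library ranges of neighbours did not overlap. For MXD4 that place lay between GDC-0810 30 nM and DMSO, the lowest group. MYBL1 had 2 such places, below DMSO and between fulvestrant 300 nM and SAR439859 300 nM. MYBL2 had 3, of which the widest in TPM lay between GDC-0810 300 nM and AZD-SAR 30 nM. MAX, MXD3, MXI1 and MYB had 0.

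Over the 12 ligand group means of log2(TPM + 1), MYBL1 and MYBL2 had a Pearson correlation of 0.932, MYC and MYBL2 of 0.812, and MYB and MYBL1 of 0.812. MYC and MXD4 had -0.840 over all 13 groups and -0.261 over the 12 ligand groups. These are descriptions over groups that share a cell line and a scaling to a fixed total.

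Among 9627 genes with a mean of at least 5 TPM, those whose 13 group means were most like each gene were found by the same measure. For MYC they were NDUFAF2 (0.980), ACTL6A (0.979) and SNRPD3 (0.979), with 0.941, 0.914 and 0.918 over the 12 ligand groups. Over the 13 groups, 149 genes exceeded 0.9 with MYC, 145 with MYBL1 and 154 with MYBL2. For MYBL1 they were NPY1R (0.987), XRCC5 (0.980) and SPDL1 (0.977). For MYBL2 they were RP1-206D15.6 (0.981), WNT4 (0.978) and SLC19A2 (0.977). NPY1R stood at 23.7 TPM in DMSO and 6.47 TPM over the ligand groups, and WNT4 at 12.9 and 4.60 TPM. For MXD4 they were SLC12A2 (0.966), C17ORF58 (0.965) and TMEM150A (0.953), with 0.903, 0.884 and 0.775 over the 12 ligand groups. These genes were higher with ligands, SLC12A2 at 35.2 TPM in DMSO and 72.2 TPM over the ligand groups. MAX had RP11-123K3.4 (0.952), RAB11B (0.947) and C19ORF54 (0.938), and MYB had C6ORF141 (0.890), STARD4 (0.880) and NECAB1 (0.878). Over the 12 ligand groups the MAX values were 0.8765, 0.8646 and 0.8349, while NPY1R kept 0.981 with MYBL1 and RP1-206D15.6 kept 0.978 with MYBL2. The highest value for MXD3 was 0.921 with PRLR, followed by LETM1 (0.834) and SNN (0.830), and MXI1 had SRP72 (0.887), SBDS (0.879) and WAPAL (0.862).

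The other genes of the pathway are given beside the same counts over all genes, of which 2.05% to 12.8% were lower and 3.71% to 15.3% higher across the 12 comparisons with DMSO, with medians of 0.00 to 0.18. Of 6 tested genes of the wider MAX network (MXD1, MNT, MGA, MLX, MLXIP and MLXIPL), 0 were lower and 0 to 1 higher, with list medians of -0.16 to 0.27. With so few genes, 1 call is 16.7% of the list, near the share of all genes. The gene called was MLXIP, which encodes MondoA, a glucose-sensing partner of MLX, higher in 6 of 12 (125 ± 11.3 TPM in DMSO, 155 to 215 TPM with ligands). MNT and MGA, which also oppose MYC at MAX, were called in 0 of 12. MYCL averaged 0.318 TPM and was not tested, and MYCN was not analysed here.

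Of 14 cofactors and corepressors of MYC and MXD, 0 to 4 were lower and 0 to 4 higher, with list medians of -0.21 to 0.31. The share of the list called was close to that of all genes in several comparisons, as with AZD-SAR 300 nM, where 14.3% of the list and 12.8% of all genes were lower and 14.3% and 12.7% higher. HDAC2, a histone deacetylase of the SIN3 corepressor, was lower in 11 of 12 comparisons (86.6 ± 38.2 TPM in DMSO, 33.8 to 48.3 TPM with ligands), and BPTF, a chromatin remodelling factor that MYC binds, was higher in 11 of 12 (116 ± 38.6 TPM in DMSO, 176 to 287 TPM with ligands). RUVBL2 was higher in 6 and ZBTB17 (MIZ1) lower in 4. Of 9 tested genes of MYC turnover, 0 to 2 were lower and 2 to 5 higher, with list medians of -0.02 to 0.65. The higher share ran from 22.2% with GDC-SAR 300 nM (9.76% of all genes) to 55.6% with SAR439859 30 nM (15.3% of all genes). FBXO32, a ubiquitin ligase subunit, was higher in 12 of 12 (11.9 ± 2.81 TPM in DMSO, 21.6 to 46.2 TPM with ligands), as was HUWE1, a ligase that ubiquitinates MYC (316 ± 20.1 TPM in DMSO, 431 to 536 TPM with ligands). SET, an inhibitor of the phosphatase PP2A, was lower in 11 of 12.

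Of 30 genes known as MYC targets, 4 to 21 were lower and 0 to 1 higher across the 12 comparisons, beside those shares of all genes. The list's median lay between -0.79 with SAR439859 300 nM and -0.21 with AZD9496 30 nM, beside an all-gene median of 0.00 to 0.18. The fewest lower calls, 4 and 7 of 30, were with AZD9496 at 30 and 300 nM, the ligand that called the fewest genes in all. These were 13.3% and 23.3% of the list, beside 2.05% and 2.21% of all genes. With SAR439859 300 nM the lower share was 70%, beside 12.8% of all genes. MCM7, a helicase subunit of DNA replication, fell in 12 of 12 comparisons, from 71.6 ± 3.15 TPM in DMSO to 14.5 to 35.4 TPM. LDHA, lactate dehydrogenase, fell in 12 of 12, from 1616 ± 84.9 TPM to 594.5 to 1080.2 TPM. CDK4 and SLC19A1, the folate carrier, each fell in 10 of 12. DNPH1 was the target called higher, in 11 of 12, and is named after its values were seen, as the exception.

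Around MYB, a list of 8 cofactors and regulators had 0 to 1 lower and 1 to 3 higher calls, with list medians of 0.12 to 0.30. The list holds FBXW7, a ubiquitin ligase subunit counted in MYC turnover as well, and HIPK2, a kinase. These are not cofactors, and HIPK2 was higher in 2 of 12 comparisons. With AZD-SAR 300 nM the higher share was 12.5%, beside 12.7% of all genes, and with SAR439859 30 nM it was 37.5%, beside 15.3%. EP300, the acetyltransferase that MYB recruits, was higher in 12 of 12 (22.8 ± 0.840 TPM in DMSO, 31.3 to 37.0 TPM with ligands), FBXW7 in 7 and KMT2A in 1, and CEBPB was lower in 1. Of 9 tested MYB targets, 3 to 6 were lower and 1 higher, with list medians of -0.76 to -0.43, beside the 2.05% to 12.8% of all genes lower and 3.71% to 15.3% higher. TFF1, also an estrogen marker, fell in 12 of 12 (2906 ± 608.4 TPM in DMSO, 551.8 to 1188 TPM with ligands) and PIM1, a kinase, in 10 of 12, and MYC itself is in this list. CXCR4, a chemokine receptor, rose in 12 of 12, from 8.44 ± 1.07 TPM in DMSO to 11.5 to 21.4 TPM.

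A list of 14 genes was read for the MuvB core, which B-MYB joins, and the DREAM complex, which shares that core. Of these, 1 to 8 were lower and 0 to 2 higher, with list medians of -0.58 to -0.05. The list also holds FOXM1, CCNA2 and CDK2, which are subunits of neither and were lower in 10, 5 and 8 of 12 comparisons. The lower share was 7.14% with GDC-0810 30 nM, beside 8.83% of all genes, and 57.1% with SAR439859 300 nM, beside 12.8%. RBL2, the pocket protein p130 of resting cells, was higher in 11 of 12 (12.5 ± 0.882 TPM in DMSO, 24.1 to 36.4 TPM with ligands). RBL1, its relative p107 of cycling cells, was lower in 10 of 12 and LIN52, a MuvB subunit, in 7. Of 16 mitotic targets of B-MYB and MuvB, 1 to 6 were lower and 0 higher, with list medians of -0.45 to -0.01. The lower share was 12.5% with GDC-0810 300 nM, beside 9.04% of all genes, and 37.5% with SAR439859 300 nM, beside 12.8%. BIRC5 (survivin) was lower in 12 of 12 (105 ± 9.41 TPM in DMSO, 36.6 to 62.3 TPM with ligands) and CDK1 in 11 of 12 (331 ± 41.0 TPM in DMSO, 62.8 to 164 TPM with ligands). KIF20A was lower in 2 and TTK in 1. The fall of BIRC5 was called with GDC-0810 and AZD9496 too. With these ligands the MYBL2 differences, -0.29 to 0.04, were not called, though those at 300 nM were after rescaling. A link between BIRC5 and MYBL2 was not tested.

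Of 6 genes kept as a reference for estrogen response, 3 to 6 were lower in each comparison and 0 higher. PGR, the progesterone receptor, fell from 35.8 ± 9.75 TPM in DMSO to 1.69 to 9.42 TPM as group means, and GREB1 from 19.7 ± 1.59 TPM to 0.942 to 7.67 TPM, both in 12 of 12. CCND1, cyclin D1, fell in 10 of 12.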

How the data were processed

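Stranded RNA libraries were sequenced from 39 samples, and the deposited table holds 1 TPM value per symbol and library. The authors used the aligner STAR and the GRCh38 build, per the submitters' processing notes. How reads were counted, on which strand, with which annotation and software versions is not given in the sources used here. Each TPM column sums to 1000000, so depth is unknown and no counting interval is given.

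Groups came from the labels. Replicate numbers are names given in accession order and pair no libraries. Genes averaging 1 TPM or more across the 39 libraries, 14404 in number, entered limma 3.58.1 (R 4.3.3) on log2(TPM + 1), with a mean per group, an intensity trend and 26 residual degrees of freedom. The comparisons were 12 with DMSO, 30 pairs of ligands at 1 dose, 6 between doses, 2 between scaffolds, and an F test among ligands at each dose. The fit was tested on simulated data for GDC-SAR 300 nM minus DMSO (14404 genes), where it recovered 4 of 50 genes changed by 0.5 (log2), 33 of 50 by 1, 46 of 50 by 1.5 and 42 of 50 by 2, with 6 false calls.

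The genes and lists were chosen with earlier results of these data known. Named list genes are up to 4 per list with the largest mean absolute difference from DMSO and a group mean of at least 5 TPM. One gene that this rule names is not reported here, though the counts of its list include it. The genes of likeness are the 3 with the highest correlation. Alternatives were a pseudocount of 0.1, no filter, median-of-ratios scaling, the libraries compared alone, leaving out the SAR439859 30 nM group or each library in turn and, added after the data were seen, protein-coding genes alone.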

Additional observations from a re-analysis of the deposited data

How the results depend on the processing

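Of the 96 comparisons of the 8 genes with DMSO, 48 were called, against 48 with a pseudocount of 0.1, 45 with no expression filter (39392 genes), 53 after median-of-ratios scaling, 49 with the 10930 protein-coding genes, 55 with a separate fit to the libraries compared, and 45 to 54 leaving out each library in turn. MYC, MXD4 and MYBL1 were called in 12 of 12 under each of these settings. Of 240 comparisons between ligands, 36 were called, against 35, 34, 42 and 36 under the first 4 settings and 32 to 40 leaving out each library. A separate fit to the 6 libraries compared called 17 of the 240, with fewer libraries behind the spread. Leaving out the SAR439859 30 nM group gave 49 calls against 43 over the other 11 comparisons with DMSO and 31 against 28 over the pairs without it; totals that need that group could not be given. The F test called 5 of 16, and 4 to 7 leaving out each library; calls between doses and between scaffolds stayed at 0. MYC made up 26.3 percentage points more of its network in DMSO than over the ligand groups, and 31.0 points with MNT and MGA left out of the sum.

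Of the single values, 5102 kept their side of the threshold, 70 were no longer called, 44 became called and 0 reversed while called. A value called in neither setting counted as kept, even where its sign turned. Scaling turned the sign of 26 of all 400 differences. These included 2 of 96 differences from DMSO (MXD3 with GDC-SAR 300 nM and MYBL2 with AZD9496 30 nM), neither called. Scaling moved the all-gene median by more than 0.1 with AZD9496 30 nM (0.18). No paired analysis was possible because the labels give no replicate numbers, and numbers in accession order pair no libraries. Depth is unknown, and 3 libraries a group limit which small differences can be called.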
